A study of Mus musculus with 15 samples.

Results

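The 10 genes described here make and route eicosanoids, the signalling lipids that cells derive from arachidonic acid and related fatty acids. They are the cytosolic phospholipases A2 Pla2g4a, Pla2g4b, Pla2g4d, Pla2g4e and Pla2g4f, the cyclooxygenases Ptgs1 and Ptgs2, the prostaglandin E synthase Ptges, and the epidermal lipoxygenases Alox12b and Aloxe3. They were taken by symbol, after mapping the Entrez identifiers of the deposited files, and all 10 were found among 36528 listed genes. The set was proposed after a higher level of Pla2g4f at 14 days of treatment had been seen in these same libraries. Its values in the comparisons that involve the 14-day libraries are therefore given as a description, without a test.

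Cytosolic phospholipases A2 cut fatty acids from membrane phospholipids, and the alpha enzyme encoded by Pla2g4a is the best known source of arachidonic acid. Cyclooxygenases convert arachidonic acid to prostaglandin H2, which terminal synthases such as Ptges turn into individual prostaglandins. Ptgs1 is the form that many tissues express at rest, and Ptgs2 is the inducible form, known in skin for its part in inflammation and in tumours. Alox12b and Aloxe3 act one after the other on linoleate-bearing ceramides in the outer epidermis, a step needed for the water barrier of skin.

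The cells were sorted from skin tumours of a mouse model of basal cell carcinoma, and their polyA RNA was sequenced. All groups carried the same alleles. K14Cre-ER, a tamoxifen-inducible Cre under the keratin 14 promoter of basal keratinocytes, deletes the floxed Hedgehog receptor gene Ptch1 (Ptch1fl/fl) and the floxed p53 gene (p53fl/fl), and Lgr5GFP marks the Lgr5 locus with GFP. There were 4 control libraries, described in the series' design as from untreated mice, 8 libraries at 6 days and 3 at 14 days of vismodegib, an inhibitor of the Hedgehog transducer Smoothened. Neither the age of the mice, the dose nor the sort gate is given in the sources used here, and nothing says that libraries came from separate animals, so p-values measure the spread between libraries. Libraries are numbered within a group only to name them.

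Total counts ran from 27336935 to 256569828 per library. The sample identifiers fall into 3 ranges, called A, B and C here, and the labels give no reason for them. Range A holds controls 1 to 3 and 6-day libraries 1, 3, 4, 6 and 8, with at most 38657170 counts each. Range B holds control 4 and 6-day libraries 2, 5 and 7, with at least 93183564 counts each. Range C holds the 3 libraries at 14 days, so that range C and 14 days of treatment cannot be told apart. As a check of the sorted cells, 7 keratinocyte and epithelial markers summed to between 21520 and 44320 CPM (counts scaled to library size with TMM normalisation factors) in every library. In bulk RNA, a larger share of cells of one type and more RNA per cell of that type cannot be told apart.

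Per gene length (deposited RPKM, reads scaled by gene length and library size), Pla2g4a was the most abundant of the 10 genes in each group by its median level, with 13.6 to 23.4 RPKM in controls, 6.72 to 20.3 at 6 days and 19.1 to 22.4 at 14 days. Pla2g4b came next in controls, with a median of 3.57 RPKM, followed by Ptgs2 at 1.02. The control medians of Aloxe3, Ptgs1 and Ptges lay at 0.467, 0.451 and 0.440 RPKM, well within each other's spread over libraries. Pla2g4e at 0.248 and Pla2g4f at 0.134 RPKM followed, their ranges overlapping, and Pla2g4d and Alox12b were at or near 0. At 14 days the order was different. Pla2g4f, at a median of 5.25 RPKM, Ptgs1, at 5.25, and Ptges, at 4.78, then stood behind Pla2g4a, but their 3 libraries spread from 0.312 to 25.9, from 0.718 to 21.4 and from 0.516 to 23.7 RPKM.

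Of the 10 genes, 6 lie on chromosome 2 of GRCm38.p6. Pla2g4e (120166412 to 120245630), Pla2g4d (120265866 to 120289069) and Pla2g4f (120299952 to 120314165) are consecutive, with gaps of 20235 and 10882 bases and no protein-coding gene between them. Pla2g4b (120033433 to 120043033) lies 123378 bases before Pla2g4e. On chromosome 1, Pla2g4a ends 138740 bases before Ptgs2 starts, with no protein-coding gene between, and on chromosome 11 Aloxe3 and Alox12b are 7956 bases apart. Some of these genes share bases with other RefSeq genes. The whole of Pla2g4b (9601 bases) lies within the long non-coding RNA Gm28042, and it shares 1541 bases with Sptbn5. Since the handling of strand is not given, reads of such overlapping genes cannot be told apart.

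The RefSeq promoter table held 8 of the 10 genes, without Pla2g4b and Aloxe3. The 250 bases before the transcript start are shown for 3 of them with contrasting levels: Pla2g4f, higher in the 14-day libraries; Ptgs2, lower in all treated libraries; and Pla2g4a, abundant throughout. They are given 5′ to 3′ on the strand of the gene. Capitals mark a stretch of 46 bases in Pla2g4f, from 88 to 43 bases before the start, in which a unit of 21 bases is repeated head to tail.
Pla2g4f, chr2:120314166-120314415, minus strand: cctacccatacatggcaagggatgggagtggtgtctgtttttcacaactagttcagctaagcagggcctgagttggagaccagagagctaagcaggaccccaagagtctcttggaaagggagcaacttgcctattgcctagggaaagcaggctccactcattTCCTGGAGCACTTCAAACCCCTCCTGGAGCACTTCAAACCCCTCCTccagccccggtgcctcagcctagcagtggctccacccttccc
Ptgs2, chr1:150099781-150100030, plus strand: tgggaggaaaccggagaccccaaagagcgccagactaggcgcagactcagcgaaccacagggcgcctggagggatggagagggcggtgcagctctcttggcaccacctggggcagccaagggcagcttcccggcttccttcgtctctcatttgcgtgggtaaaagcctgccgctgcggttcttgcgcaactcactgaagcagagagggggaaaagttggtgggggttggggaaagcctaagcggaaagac
Pla2g4a, chr1:149961291-149961540, minus strand: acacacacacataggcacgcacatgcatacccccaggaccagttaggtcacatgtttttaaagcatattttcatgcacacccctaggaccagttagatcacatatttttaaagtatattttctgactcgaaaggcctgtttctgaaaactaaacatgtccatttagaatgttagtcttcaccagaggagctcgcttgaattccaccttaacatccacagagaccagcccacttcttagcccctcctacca
An exact tandem repeat with a unit of at least 15 bases was present in 275 of 32851 promoters of that length (0.837%), and Pla2g4f was the only one of the 8 genes with one. The AP-1 motif TGANTCA, in 6.75% of all promoters, the GLI motif GACCACCCA, in 0.225%, and the cyclic AMP response element TGACGTCA, in 1.55%, were searched on both strands. None of these letters occurred in the windows of the 8 genes. The TATA box letters TATAAA, in 12.4% of all promoters on either strand, occurred only on the strand opposite to the gene. There they lay in Pla2g4d, 31 to 26 bases before its start, and in the window of a second, downstream start of Pla2g4a. Read along the gene, the letters were TTTATA. GC content was 56.0% in the Pla2g4f window, 61.6% in that of Ptgs2 and 43.2% in that of Pla2g4a, against a median of 52.4% over all promoters. These matches describe the letters in the windows and say nothing about binding.

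Pla2g4f, a cytosolic phospholipase A2 of the zeta form, was low in control tumours and reached high levels in some treated libraries. The 4 controls held 0.596, 0.446, 1.0 and 0.515 CPM, from 15 to 46 reads each. The 8 libraries at 6 days ran from 0.887 to 10.8 CPM with a median of 2.26, and the 3 at 14 days held 109.8, 1.34 and 22.4 CPM. Every 14-day library thus lay above every control, as was true of 11.7% of all tested genes, while at 6 days 3 of the 8 libraries (1, 4 and 8) lay below control 3. The fitted log2 fold change was 2.24 ± 0.94 (SE) at 6 days, 6.13 ± 1.21 at 14 days against control and 3.89 ± 0.84 at 14 days against 6 days. At 6 days, the comparison that did not lead to its choice but shares the controls, the edgeR quasi-likelihood test gave an adjusted p of 0.320 and an unadjusted p of 0.0309. Libraries of range A alone gave a 6-day log2 value of 1.16 and those of range B, which holds a single control, 3.37. The value was 1.52 without 6-day library 7. Without 14-day library 1 its value at 14 days against control was 4.23, and that against 6 days 2.0.

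Its neighbour Pla2g4e, an epsilon form with N-acyltransferase activity, was low in most libraries and stood out in 1 library of each group. Controls held 11.5, 0.267, 2.44 and 0.559 CPM. At 6 days Pla2g4e ran from 0.765 to 14.5 CPM with a median of 2.68, and at 14 days it was at 43.1, 0.357 and 4.86 CPM. The groups overlapped fully, since 14-day library 2 was below 3 of the 4 controls and control 1 above 14-day library 3. Fitted log2 values were 0.10 ± 1.08 (SE) at 6 days (edgeR adjusted p = 0.991), and 2.12 ± 1.34 at 14 days against control, where it was -0.49 without 14-day library 1. Its 6-day value was -1.0 in range A alone and 3.54 in range B alone.

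Pla2g4d, the delta form that lies between them and was first described in psoriatic skin, was nearly silent. It had 13 counts in control 1 and 15 in control 4, 1 count in 14-day library 2 and 0 in the other 12 libraries, so it did not pass the filter on low counts and was not tested. A floor of 3 counts corresponds to 0.0120 to 0.105 CPM, depending on the library, which is the level that a count of 0 still allows (counting error only). The consecutive genes on either side of it reached 43.1 and 109.8 CPM in 14-day library 1, in which Pla2g4d had no count.

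Pla2g4a, the alpha form and main releaser of arachidonic acid, was lower at 6 days than in the other groups in most libraries. Controls held 71.9, 85.4, 64.4 and 48.3 CPM, the 6-day libraries ran from 24.8 to 75.2 with a median of 38.6, and the 14-day libraries held 81.9, 74.1 and 70.0. At 6 days 6 of 8 libraries lay below all controls, and libraries 3 and 8 lay among them. At 6 days its log2 fold change was -0.65 ± 0.24 (SE), with an edgeR adjusted p of 0.234 and an unadjusted p of 0.0160. At 14 days the log2 value was 0.16 ± 0.30 against control and 0.81 ± 0.26 against 6 days.

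Pla2g4b, the beta form, followed the identifier range and not the treatment. In range A it was at 7.18 to 17.7 CPM in the 3 controls and 11.2 to 18.1 in the 5 libraries at 6 days. In range B it was at 47.6 CPM in the control and 42.3 to 57.0 in the 3 libraries at 6 days. Within a range, the 6-day log2 fold change was 0.03 in A and 0.04 in B. The 14-day libraries held 8.05, 18.4 and 13.5 CPM. Libraries 1 and 3 at 14 days lay within the values of range A, and library 2 just above the highest of them, 18.1 CPM. Depth differs between these ranges, and its part in the result was not tested.

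**Figure D1:**
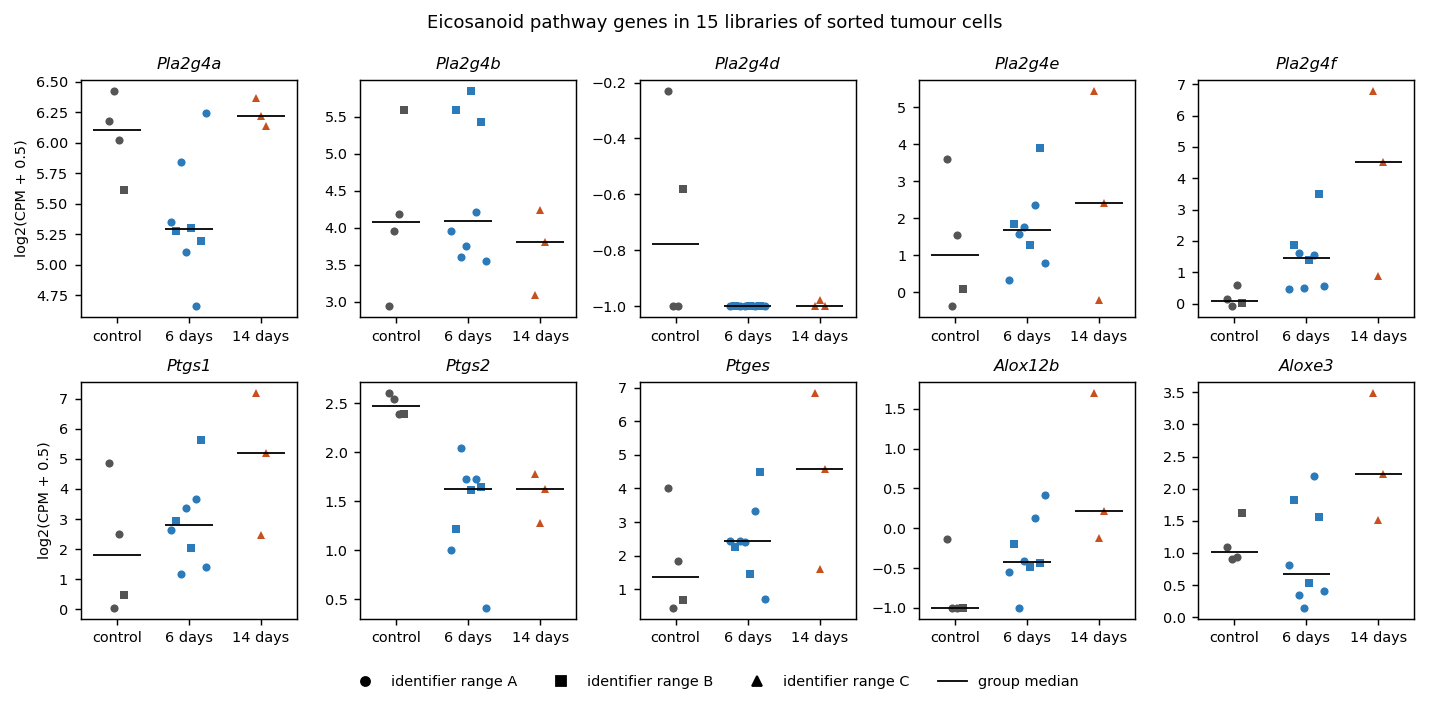
Levels of the 10 eicosanoid genes as log2(CPM + 0.5), 1 point per library, by group (4 control, 8 at 6 days, 3 at 14 days of vismodegib); point shapes give the identifier range and lines the group medians, and each panel has its own scale. Pla2g4f was above all controls in the 3 libraries at 14 days, Ptgs2 was below all controls in all 11 treated libraries, and Pla2g4b was high in the 4 libraries of range B in both groups.

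Ptgs2, the inducible cyclooxygenase, was lower in every treated library than in any control. The controls were close together, at 5.58, 5.32, 4.72 and 4.73 CPM. The 8 libraries at 6 days ran from 0.830 to 3.62 CPM with a median of 2.59, and the 14-day libraries held 2.92, 1.93 and 2.58 CPM. The log2 fold change at 6 days was -1.13 ± 0.33 (SE), a 2.20-fold lower level, with an edgeR adjusted p of 0.115 and an unadjusted p of 0.00327. That test did not pass the threshold of 0.05, and DESeq2 on the same counts gave an adjusted p of 0.00899. Range A alone gave -1.18 and range B alone -1.03, and the value lay between -1.25 and -1.01 when any 1 library was left out. Of 18751 tested genes, 276 (1.47%) were lower in all 8 libraries at 6 days than in all controls, and 203 (1.08%) in all 11 treated libraries. At 14 days the log2 value was -1.04 ± 0.43 against control and 0.10 ± 0.37 against 6 days.

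Ptgs1, the cyclooxygenase of resting tissue, varied widely between the libraries of each group. Controls held 28.4, 0.535, 5.19 and 0.884 CPM. At 6 days Ptgs1 ran from 1.78 to 48.8 CPM with a median of 6.48, and at 14 days it was at 146, 4.98 and 36.0 CPM. Control 1 lay above 7 of the 8 libraries at 6 days and above 14-day library 2. The log2 fold change was 0.39 ± 1.09 (SE) at 6 days (edgeR adjusted p = 0.958), with -0.85 for range A alone and 4.48 for range B alone. It was -0.57 at 6 days without 6-day library 7 and 2.35 without control 1, so that its sign rested on single libraries. At 14 days it was 2.84 ± 1.37 against control, and 1.24 without 14-day library 1.

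Ptges, the inducible synthase of prostaglandin E2, was highest in the same library of each group as Ptgs1. Controls held 15.6, 0.862, 3.09 and 1.11 CPM, the 6-day libraries ran from 1.13 to 22.1 with a median of 4.87, and the 14-day libraries held 115, 2.54 and 23.3 CPM. Again control 1 lay above 14-day library 2, and the groups overlapped. Its log2 fold change was 0.39 ± 0.95 (SE) at 6 days (edgeR adjusted p = 0.952), with -0.37 in range A alone and 3.10 in range B alone. It was -0.23 without 6-day library 7 and 1.97 without control 1. At 14 days it was 3.19 ± 1.20 against control and 2.79 ± 0.95 against 6 days, falling to 1.34 and 0.94 without 14-day library 1.

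The 2 lipoxygenases of the set, Alox12b and Aloxe3, were rare. This did not hold for every lipoxygenase. Alox12e, listed around the set, was at 1440, 226, 341 and 151 CPM in controls. It ran from 48.6 to 676 CPM at 6 days and was at 1364, 206 and 547 CPM at 14 days. Alox12b, the first enzyme of the ceramide oxidation step, had 15 counts in control 1 and 0 in the other 3 controls. It ran from 0 to 0.830 CPM at 6 days, with a median of 0.246, and was at 2.75, 0.419 and 0.665 CPM at 14 days. Each 14-day library lay above control 1, at 0.407 CPM, by a small margin in library 2. The fitted 6-day log2 fold change of 1.74 ± 1.28 (SE; edgeR adjusted p = 0.691) depends on controls without a count. Aloxe3, the enzyme that isomerises the product of Alox12b, was at 1.63, 1.37, 1.41 and 2.57 CPM in controls, 0.606 to 4.10 with a median of 1.10 at 6 days, and 10.8, 2.36 and 4.18 at 14 days. Its log2 fold change was 0.00 ± 0.56 at 6 days (edgeR adjusted p = 1.0) and 1.72 ± 0.69 at 14 days against control, and control 4 lay above 14-day library 2. Without 14-day library 1 the latter value was 0.92.

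Of the 9 tested genes of the set, 0 were called at 6 days (edgeR adjusted p under 0.05), beside 1.26% of all 18751 tested genes. At an unadjusted p under 0.05 there were 3 (Ptgs2, Pla2g4a and Pla2g4f), beside 12.7% of all genes, and DESeq2 called 1 (Ptgs2), beside 4.52%. At 14 days against control 1 of the 9, Pla2g4f, was called, beside 6.6% of all genes, and against 6 days again Pla2g4f, beside 3.89%. DESeq2 called 3 and 4 of the 9 in these comparisons, beside 14.7% and 14.1%. The 14-day libraries led to the choice of the set, so these counts are no test of it and nothing is read from them. The 6-day effect was not shown to differ between identifier ranges A and B for any of the 9 genes (edgeR interaction test, 0 called beside 0.117% of all genes), with unadjusted p-values between 0.0729 for Ptgs1 and 0.986 for Pla2g4b.

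**Figure D2:**
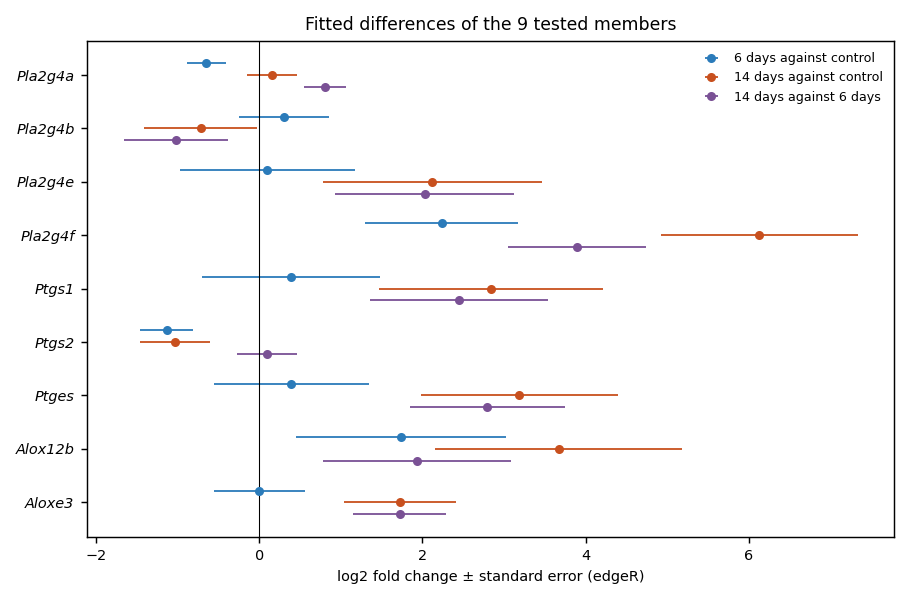
Log2 fold changes of the 9 tested genes with their standard errors, from 1 edgeR fit of 15 libraries, for 6 days against control, 14 days against control and 14 days against 6 days. Pla2g4f lies farthest from 0, at 6.13 in 14 days against control, and Ptgs2 is at -1.13 and -1.04 against control in the 6-day and 14-day libraries.

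Ptgs1, Ptges, Pla2g4e and Pla2g4f were all highest in 14-day library 1 and, among the 6-day libraries, in library 7. Over the 15 libraries the Pearson correlation of log2(CPM + 0.5) was 0.95 between Ptgs1 and Ptges, 0.92 between Pla2g4e and Ptges, 0.90 between Pla2g4e and Ptgs1, 0.85 between Pla2g4f and Ptges, 0.78 between Pla2g4f and Ptgs1 and 0.76 between Pla2g4e and Pla2g4f. With these 4 genes Alox12b was at 0.64 to 0.73 and Aloxe3 at 0.57 to 0.76. Ptgs2 and Pla2g4a stood apart, with correlations to the same 4 between -0.13 and 0.12. These values describe 15 libraries that share groups, identifier ranges and depth, and carry no test.

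The same libraries were high in markers of the suprabasal epidermis, the differentiating layers above the basal cells. The sum of 15 suprabasal markers was 2885 CPM in control 1 and 874 to 988 CPM in the other controls. It ran from 1117 to 2027 CPM at 6 days, with library 7 the highest, and was 8007, 879 and 2795 CPM at 14 days. Krt10, a keratin of those layers, was at 447 CPM in control 1, 461 in 6-day library 7, and 3011, 167 and 1016 at 14 days, and Krt1, its partner, at 147, 519, 2779, 36.1 and 660 CPM in the same 5 libraries. Of the 15 markers, 1 was called higher at 14 days against control, beside 3.25% of all genes. Positive log2 fold changes were seen in 12, with a median of 1.05 beside -0.02 over all genes. Calml3, Krtdap and Sbsn went the other way, at -1.69, -0.88 and -0.13, and were not called. Upper follicle and sebaceous gland markers, 15 in all, summed to 21650 CPM in control 1 and 7319 to 11140 in the other controls. Their sum was 4737 to 12350 CPM at 6 days, highest in library 4, and 10880, 6492 and 10420 at 14 days. Krt79, among them, was at 6376 CPM in control 1 and 543 to 1301 in the other controls. It was at 411 to 2666 CPM at 6 days and 4813, 822 and 2255 at 14 days.

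Control 1 had high Krt10 and low Pla2g4f. Per 1000 CPM of Krt10, Pla2g4f was at 1.33 to 5.63 CPM in controls, the lowest in control 1, at 2.58 to 23.4 at 6 days, and at 36.5, 8.04 and 22 at 14 days. Ptgs1 on the same scale was at 63.6 in control 1 and at 48.6, 29.8 and 35.5 at 14 days, and Ptges at 34.8 in control 1 and 38.2, 15.2 and 22.9 at 14 days. For Pla2g4e the value was 25.8 in control 1 and 14.3, 2.14 and 4.79 at 14 days. This scale was chosen after seeing the data, and the values, from libraries that led to the choice of Pla2g4f, are a description.

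In a fit with the summed suprabasal markers as a covariate, chosen after seeing the data, the 14-day log2 value against control was 2.30 ± 0.90 (SE) for Pla2g4f, 0.74 ± 0.80 for Ptgs1, 0.60 ± 0.63 for Ptges and -1.42 ± 0.71 for Pla2g4e. No gene of the set was called in that fit. Of all 18751 tested genes it called 416 at 6 days, 794 at 14 days against control and 122 at 14 days against 6 days. Ptgs2 was at -1.17 ± 0.32 at 6 days and -1.27 ± 0.49 at 14 days, about where it lay without the covariate.

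**Figure D3:**
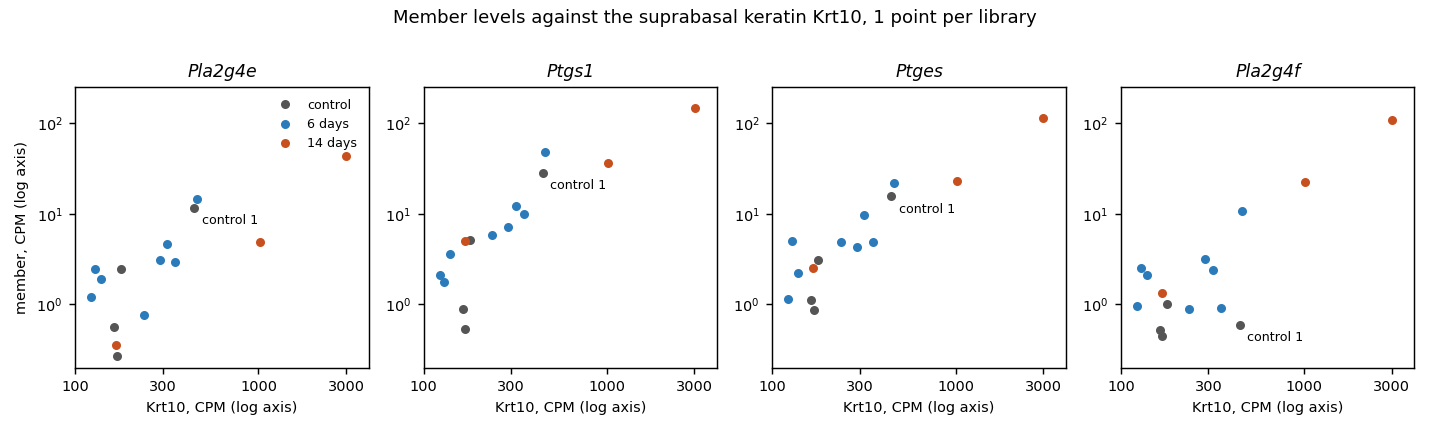
CPM of Pla2g4e, Ptgs1, Ptges and Pla2g4f against CPM of the suprabasal keratin Krt10, both on log axes, 1 point per library coloured by group. Control 1, at 447 CPM of Krt10, lies among the treated libraries in the first 3 panels and below them in the panel of Pla2g4f, at 0.596 CPM.

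Markers of other cell types differed in level. The sum of 12 myeloid markers was 5.82 to 40.5 CPM in controls, 4.81 to 42.5 at 6 days and 30.3 to 95 at 14 days. Of the 12, 3 (C1qb, Adgre1 and Itgam) were called higher at 14 days against control, beside 3.25% of all genes. Log2 values were positive in 11 of the 12. Cd68, Ptprc and Cd14, at -0.18, 0.39 and 0.63, were not called. The complement gene C1qb was at 0 to 0.136 CPM in controls and 5.37 to 8.68 at 14 days. The macrophage gene Adgre1 was at 0 to 0.0297 and 0.761 to 0.917 CPM. Neither overlapped between these groups, as was true of 11.7% of all tested genes in this direction. The neutrophil and keratinocyte genes S100a8 and S100a9 made up most of the sum in control 1, at 16.7 and 11.7 CPM, and in 14-day library 1, at 23.6 and 32.4 CPM. Of 8 mast cell markers, 5 had no count in any library, and 8 fibroblast markers summed to at most 21.7 CPM. Melanocyte markers summed to 34.6 to 862 CPM, with group medians of 278, 259 and 269. S100a8 and S100a9 were high in libraries in which Ptgs1 and Ptges were high, while C1qb and Adgre1 were at 0.17 CPM or less in every control and 6-day library, control 1 and 6-day library 7 included. The part of myeloid cells in the levels at 14 days was not tested.

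The 8 genes whose log2(CPM + 0.5) was most like that of Pla2g4f over the 15 libraries, among 10064 tested candidates that averaged 10 CPM or more, were Cpne2 (Pearson r 0.89), Tgm4 (0.89), Gdpd2 (0.89), Fcgbp (0.87), Cluh (0.87), Rps6ka4 (0.86), Sema3f (0.86) and Thap12 (0.86). Gdpd2, a glycerophosphodiester phosphodiesterase, was at 0.0336 to 2.55 CPM in controls and at 172, 2.61 and 47.0 CPM at 14 days. Its group means were 1.37 CPM in controls, 2.02 at 6 days and 73.8 at 14 days. It thus passed the limit of 10 CPM, a mean over all 15 libraries, only through the 14-day libraries. Fcgbp, which encodes a mucin-like IgG Fc binding protein, was at 13.8 to 159 CPM in controls and at 4066, 309 and 822 CPM at 14 days. In both, as in Pla2g4f, 14-day library 1 was the highest and library 2 the lowest of the 3. The choice of these genes used the same values, so the likeness has no test.

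Around the 10 genes, 104 others of eicosanoid and barrier lipid metabolism were listed by function, and 87 of them were tested. At 6 days 2 of the 87 were called, beside 1.26% of all genes, and both encode epoxide hydrolases, enzymes that open the epoxides of fatty acids or of foreign compounds. Ephx2, the soluble enzyme that acts on epoxides of arachidonic acid, was at 8.38, 1.93, 7.75 and 3.62 CPM in controls, 10.3 to 37.6 at 6 days with a median of 18.1, and 22, 25.1 and 30.9 at 14 days. Every treated library was above every control. At 14 days alone this held for 11.7% of all tested genes, and the share for all treated libraries together was not counted. The log2 fold change of Ephx2 was 1.93 ± 0.42 (SE) at 6 days (edgeR adjusted p = 0.0381) and 2.26 ± 0.48 at 14 days (edgeR adjusted p = 0.0141). Ephx1, the microsomal enzyme, was at 183 to 254 CPM in controls, 287 to 503 at 6 days and 291, 566 and 425 at 14 days, again without overlap. Its log2 fold change was 0.88 ± 0.19 at 6 days (edgeR adjusted p = 0.0381) and 0.96 ± 0.23 at 14 days (edgeR adjusted p = 0.0223). Within ranges A and B the 6-day value was 0.81 and 1.10 for Ephx1 and 2.0 in each for Ephx2. Of 15 fits that each left out 1 library, 5 kept the 6-day call of Ephx2 (adjusted p 0.0273 to 0.110) and 3 that of Ephx1 (0.0233 to 0.133), with log2 values of at least 1.62 and 0.80. At 14 days 14 and 12 of these fits kept the calls, with adjusted p-values of up to 0.0525 for Ephx2 and 0.109 for Ephx1.

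At 14 days against control 12 of the 87 genes were called, 9 higher and 3 lower, beside 3.25% and 3.35% of all genes in these directions. Ptger4, which encodes the EP4 receptor of prostaglandin E2, rose. It was at 31.5, 31.5, 25.3 and 18.2 CPM in controls, 22.3 to 42.6 at 6 days with a median of 31.6, and 135, 60.5 and 80.6 at 14 days. Every 14-day library was above every control, as was true of 11.7% of all tested genes. For Ptger4 the 14-day libraries were also above every 6-day library, and the share of all genes in that position was not counted. Against control the log2 fold change was 1.79 ± 0.30 (SE; edgeR adjusted p = 0.00444), called in each of the 15 fits without 1 library, and 1.57 ± 0.25 (edgeR adjusted p = 0.00775) against 6 days, where the adjusted p was 0.10 without 14-day library 1. At 6 days it was 0.22 ± 0.24 (edgeR adjusted p = 0.838). The other receptors of prostaglandin E2 did not pass the test in any of the 3 comparisons: at 14 days against control the log2 value was -0.42 ± 0.74 for Ptger1, 0.96 ± 0.89 for Ptger2 and 0.49 ± 1.13 for Ptger3, with edgeR adjusted p-values of 0.784, 0.563 and 0.843.

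Hpgd, the dehydrogenase that inactivates prostaglandins, was at 29.0 to 83.1 CPM in controls and 56.4 to 235 at 6 days, a log2 fold change of 1.13 ± 0.44 (SE; edgeR adjusted p = 0.273). At 14 days it was at 54.4, 188 and 68.9 CPM (log2 value 1.0 ± 0.52, edgeR adjusted p = 0.265), and the log2 value was 0.26 without 14-day library 2. Ptgds, a prostaglandin D synthase, differed by -0.05 ± 0.77 at 6 days and -0.71 ± 0.98 at 14 days. Alox5ap, the partner of 5-lipoxygenase in leukotriene synthesis, differed by 0.89 ± 0.67 and -0.01 ± 0.80. Neither was called in any of the 3 comparisons, and their standard errors leave room for changes of more than 1 log2 unit.

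Lta4h, the enzyme that makes leukotriene B4, fell at 14 days. It was at 113, 145, 159 and 194 CPM in controls, 82.4 to 128 at 6 days and 93.4, 81.1 and 92.0 at 14 days, a log2 fold change of -0.78 ± 0.19 (SE; edgeR adjusted p = 0.0241) against control. The call was lost without any 1 of 5 libraries (controls 2 and 3 and each of the 3 at 14 days), at an adjusted p of up to 0.098. S100a10, an annexin A2 partner listed among the regulators of phospholipase A2, fell from 309, 114, 197 and 206 CPM in controls to 93.0, 89.7 and 90.1 at 14 days. Its log2 fold change was -1.18 ± 0.24 (SE; edgeR adjusted p = 0.0114) against control and -1.14 ± 0.22 (edgeR adjusted p = 0.0173) against 6 days, when it ran from 175 to 228 CPM. Both calls were lost without 14-day library 1 (adjusted p of 0.0529 and 0.154) and without 14-day library 3. Cbr1, a carbonyl reductase that acts on prostaglandins, was lower at 14 days than at 6 days by -0.61 ± 0.15 (edgeR adjusted p = 0.0363), called in 5 of the 15 fits without 1 library.

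Among 22 tested genes of barrier ceramides and the corneocyte lipid envelope, 20 had positive log2 fold changes at 14 days against control. The median was 1.04 beside -0.02 over all genes, and 4 were called higher, beside 3.25% of all genes. Acer1, an alkaline ceramidase of differentiating keratinocytes, was at 6.83, 1.25, 3.53 and 0.626 CPM in controls, 2.5 to 8.71 at 6 days, and 78.1, 3.10 and 19.0 at 14 days. Its log2 fold change was 3.45 ± 0.89 (SE; edgeR adjusted p = 0.0332), although 14-day library 2 lay below 2 controls. It was called in 10 of 15 fits without 1 library and was 1.87, with an adjusted p of 0.278, without 14-day library 1. Elovl1, an elongase of very long fatty acids, rose by 0.86 ± 0.20 (edgeR adjusted p = 0.0213) and Nipal4, an ichthyosis gene, by 1.18 ± 0.29 (0.0268). Both of these calls were also lost without 14-day library 1, at adjusted p-values of 0.138 and 0.149, and without control 2 or control 3. With the suprabasal covariate, chosen after seeing the data, Acer1 was at 1.15, Elovl1 at 0.57 and Nipal4 at 0.89, none of them called. In the same fit Ptger4 was at 1.40, Ephx2 at 2.25, Ephx1 at 1.16 and S100a10 at -1.34, and all 4 were called. That fit called 794 of all 18751 tested genes at 14 days against control.

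Abca12, the lipid transporter of lamellar granules, and Cers3, the ceramide synthase of the epidermal barrier, were not called. Abca12 was at 18.3, 0.0297, 2.66 and 1.58 CPM in controls and 88.5, 3.60 and 19.3 at 14 days (log2 value 2.72 ± 1.39 SE, edgeR adjusted p = 0.253), high in the libraries in which Ptgs1 and Ptges were high. Cers3 was at 10.5 to 19.2 CPM in controls and 32.2, 4.80 and 10.4 at 14 days (0.09 ± 0.58, edgeR adjusted p = 0.945). A further 3 of the 12 genes called at 14 days against control, named here after their values were seen, were Prxl2b, a prostamide and prostaglandin F synthase, at 1.35 ± 0.33 (edgeR adjusted p = 0.0270), Cyp2j6, a fatty acid epoxygenase, at 0.93 ± 0.25 (0.0371), and the secreted phospholipase Pla2g3, at -3.29 ± 0.89 (0.0398), which went from 99.9 to 438 CPM in controls to 10.2 to 40.7 at 14 days.

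**Figure D4:**
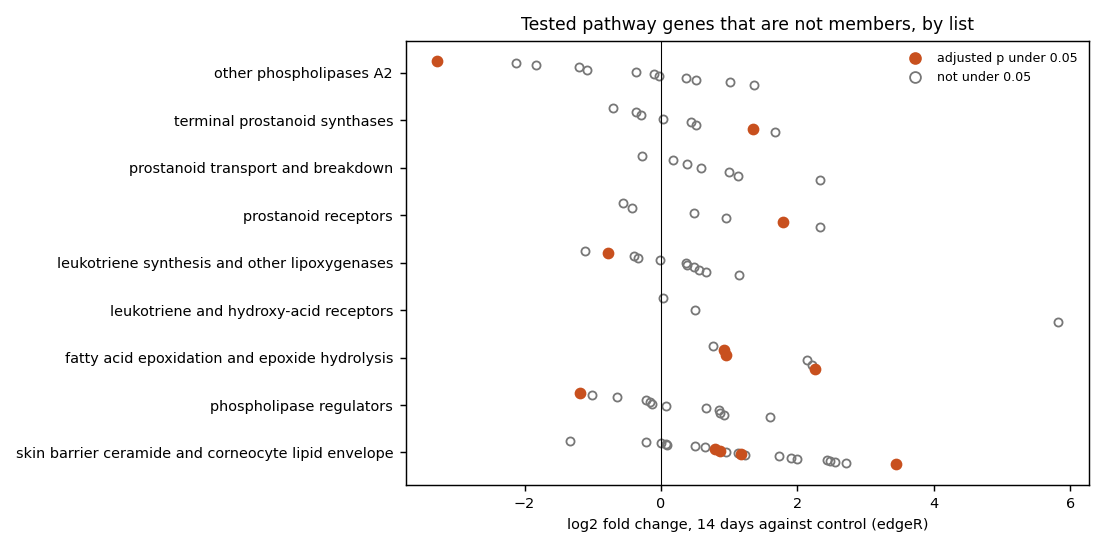
Log2 fold changes at 14 days against control of the 87 tested genes around the set, grouped by list, 1 point per gene; filled points have an edgeR adjusted p under 0.05. The 12 filled points comprise 9 to the right and 3 to the left of 0, and 20 of the 22 barrier genes lie to the right.

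**Figure D5:**
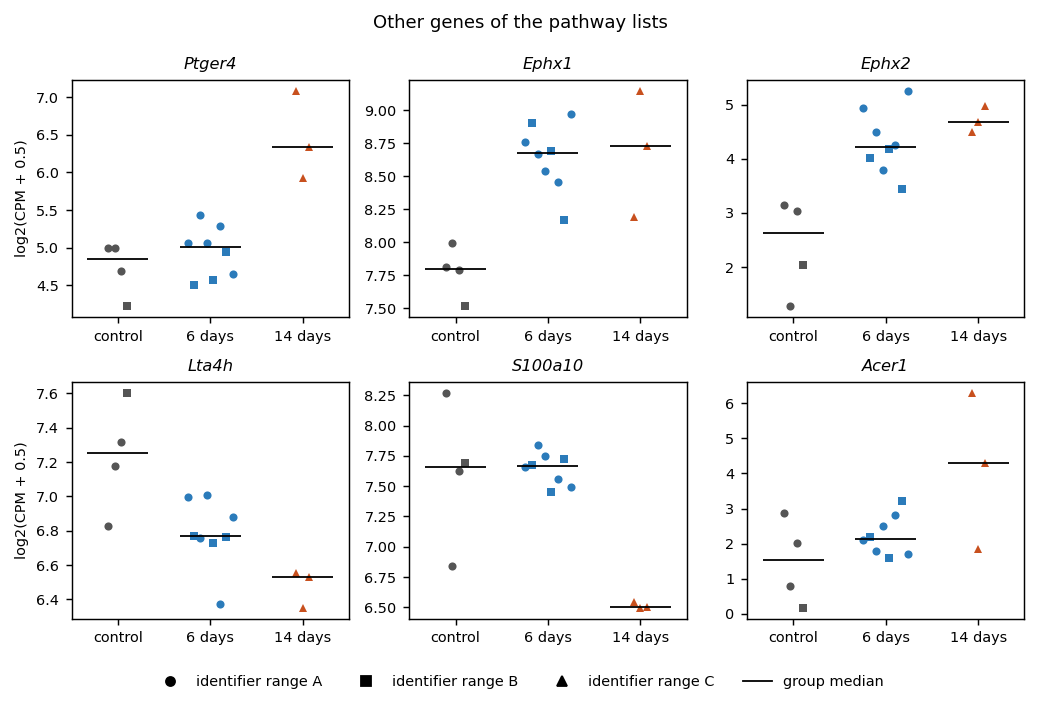
Levels of 6 called genes around the set as log2(CPM + 0.5), 1 point per library by group, with identifier ranges as point shapes and lines at the group medians. Ephx1 and Ephx2 were above all controls in all 11 treated libraries, and Ptger4 was above all other libraries in the 3 at 14 days, from 60.5 to 135 CPM.

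At 14 days against 6 days 5 of the 87 genes were called, 3 higher, with Ptger4 and Acer1 among them, and 2 lower (Cbr1 and S100a10), beside 2.14% and 1.75% of all genes in these directions. Acer1 stood at 2.87 ± 0.70 (SE; edgeR adjusted p = 0.0375) on the log2 scale. Of the 5 calls, 0 remained without 14-day library 1, where 3 genes were called among all tested.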

How the data were processed

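PolyA RNA of sorted tumour cells was sequenced in 15 libraries. The authors deposited a count per gene of uniquely aligned reads and an RPKM value, which divides it by gene length and a size factor of the library, per the file headers. The submitters' processing notes name GSNAP as the aligner and GRCm38 as the build. The annotation, the versions and the treatment of strand were not given in the sources used here. RPKM served only to compare levels between genes.

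Of 36528 Entrez identifiers, 31049 matched RefSeq genes of GRCm38.p6, and the other 5479 held 1.24 to 1.59% of counts. Groups follow the treatment label. Every pair of libraries differed by more than sampling noise (chi-square of at least 56.76 per degree of freedom). The deposited counts entered edgeR 4.0.16 (R 4.3.3) and were compared by the quasi-likelihood F test after filterByExpr and TMM scaling. A single fit of 15 libraries, 1 mean per group, had 18751 genes, 12 residual degrees of freedom and a common biological coefficient of variation of 0.579. A call means a Benjamini-Hochberg adjusted p under 0.05, taken over all tested genes. Levels are TMM-scaled CPM. The 3 comparisons share groups, so agreement between them is no separate evidence. DESeq2 1.42.0, other scalings, filters, covariates, identifier ranges and leaving out each library were tried as alternatives. The scripts were tested on simulated counts, with 100 genes changed 2-fold and 100 changed 4-fold. At 6 days against control 6 and 41 of them were called. At 14 days against control it was 2 and 31, and at 14 days against 6 days 6 and 50. A gene that was not called may thus still have changed.

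The set of genes and the lists were chosen with earlier results of these data known. Named were all 10 genes, up to 8 called genes per comparison of the lists around them by smallest p, 9 genes by name whatever they showed (Alox5ap, Ptgds, Hpgd, Ptger1 to Ptger4, Abca12 and Cers3), and the 8 genes most like Pla2g4f, leaving out Y-linked genes and Xist. Listed symbols without a match were left out, and 1 gene that the rule named is not reported here. Promoters are from the RefSeq table.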

Additional observations from a re-analysis of the deposited data

Results flagged for a closer look

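Dixon's test was applied to log2(CPM + 0.5), not to CPM, in groups of 4 or 8 libraries. At the 95% level, a rule by which chance marks about 1 in 20, 2 of 19 gene and group combinations had a library set apart. Pla2g4f was at 10.8 CPM in 6-day library 7, against 0.887 to 3.17 CPM in the other 7 libraries at 6 days. That library was also the highest of its group in Ptgs1, Ptges and Pla2g4e and in the summed suprabasal markers, at 2027 CPM. Alox12b was at 0.407 CPM in control 1, from 15 counts, and had no count in the other 3 controls. With those controls tied at 0, any count in control 1 would be set apart, so the rate of 1 in 20 does not apply to it.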

How the results depend on the processing

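No paired analysis was possible because the labels give no replicate numbers. Of 609 alternative values for the 27 results of the set, 593 stayed on their side of the threshold, and 0 called values changed sign. For the 54 results of the other named genes, 1115 of 1221 did so. Genes of the set called were, at 6 days, 14 days against control and 14 against 6 days, 0, 1 and 1. With DESeq2 they were 1, 3 and 4. With only the 2 groups compared, 0 were called at 14 days against control, and with range B as a covariate 2 at 14 against 6 days. With the suprabasal covariate, added after seeing the data, 0 were called in both. Leaving out 1 library gave 0, 0 to 3 and 0 to 2. The 87 genes around the set gave 2, 12 and 5 calls. DESeq2 gave 6, 23 and 13. Only the 2 groups gave 2 and 8 in the 14-day comparisons, the range B covariate 22 and 8, and the suprabasal covariate 4, 5 and 2. Range B alone gave 1 at 6 days, and no filter on low counts gave 3 at 14 against 6 days. Leaving out 1 library gave 0 to 3, 3 to 20 and 0 to 9. Over all genes, calls at 14 against 6 days went from 730 to 3 without 14-day library 1 and 43 without library 3, and at 14 days against control from 1238 to 376 and 466. At 6 days they went from 236 to 69 without control 2 and 91 without control 3. DESeq2 called 846, 2752 and 2585 and the range B covariate 866, 3196 and 2036. With 2 groups 374 were called at 14 days against control, and the suprabasal covariate gave 416, 794 and 122. Range A alone gave 468 at 6 days, and no filter 460 at 14 against 6 days. The cause was not tested. The log2 fold change of Pla2g4f at 14 days against control lay between 2.30 and 6.71 over these settings, lowest with the suprabasal covariate. Low counts limit what can be said of Pla2g4d, which had 0 or 1 count in 13 of 15 libraries, and of Alox12b, which had 0 in 4.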
